A study of Rattus norvegicus with 6 samples.

Results

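The mevalonate and cholesterol synthesis genes examined here were Hmgcs1, Mvk, Mvd, Idi1, Fdps, Fdft1, Sqle and Insig1, 8 genes in all. They were followed in blood vessel endothelial cells of abdominal skin from Sprague-Dawley rats, with 3 IL-33 knock-out animals (28, 27 and 52) set against 3 wildtype animals (34, 45 and 37). The set was chosen by the measured values of Fdps, which was lower on every knockout array, and by membership in its pathway, and the question was whether the rest of the pathway followed. A probeset was named for 7 of the 8 genes, among 15037 genes named on the array, and Hmgcs1 was not analysed here because no probeset carried its name. All 7 had a mean signal above the filter on dim genes, which left 11577 genes for testing.

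Each genotype held 2 females and 1 male, animal 52 being the male knockout and animal 37 the male wildtype. No treatment is given in the labels for either group. Each animal gave 1 array. The age of the animals and the position of the deletion in the knockout were not given in the sources used here. The cells had been released with collagenase and sorted magnetically, with CD45-positive and Lyve-1-positive cells removed and CD31-positive cells retained. Labelled DNA copied from total RNA was hybridised to Affymetrix arrays, and the values below are log2 expression per probeset. A difference of 1 on this scale is a doubling of signal. Signals of different probesets depend on their probes, so the genes are compared between arrays and not with each other.

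The mevalonate pathway turns acetyl-CoA into isoprenoid units. Farnesyl diphosphate stands at its branch point, from which cells make cholesterol, the lipid anchors of small GTPases, dolichol and ubiquinone. Its enzymes are switched on together by the SREBP transcription factors when sterols are scarce, and Insig proteins hold SREBP in the endoplasmic reticulum when sterols are plentiful.

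SREBP factors act on these promoters together with NF-Y, which binds the CCAAT box, so the promoters were searched for both kinds of letters. The RefSeq promoter table (assembly GRCr8) held 6 of the 8 genes, with Fdft1 and Sqle not among them. The 250 bases before the start are shown for Fdps, Idi1 and Insig1, the gene that prompted the comparison, an enzyme of the step before it and the regulator whose difference had the opposite sign. Capitals mark the letters CCAAT, or ATTGG where the box lies on the other strand. The Fdps window is chr2:176804817-176805066, that of Idi1 chr17:66547525-66547774 and that of Insig1 chr4:8057770-8058019, all on the minus strand and written 5′ to 3′.
Fdps: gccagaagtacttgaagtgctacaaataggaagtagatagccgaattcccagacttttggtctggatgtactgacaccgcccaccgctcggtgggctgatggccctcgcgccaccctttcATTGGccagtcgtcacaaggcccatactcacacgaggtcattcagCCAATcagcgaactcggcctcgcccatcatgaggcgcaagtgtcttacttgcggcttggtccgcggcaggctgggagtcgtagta
Idi1: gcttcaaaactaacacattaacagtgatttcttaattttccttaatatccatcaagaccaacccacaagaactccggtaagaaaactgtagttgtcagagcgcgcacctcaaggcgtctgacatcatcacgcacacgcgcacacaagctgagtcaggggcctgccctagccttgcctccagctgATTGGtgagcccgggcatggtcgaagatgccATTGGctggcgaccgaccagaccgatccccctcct
Insig1: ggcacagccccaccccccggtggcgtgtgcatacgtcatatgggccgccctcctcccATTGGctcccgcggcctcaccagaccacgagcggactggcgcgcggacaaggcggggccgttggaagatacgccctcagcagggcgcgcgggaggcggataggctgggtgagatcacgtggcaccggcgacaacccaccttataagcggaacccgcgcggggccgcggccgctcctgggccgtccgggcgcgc

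The letters CCAAT occurred on either strand in all 6 promoters held, against 35.3% of the 10043 promoters of genes tested on the arrays. Mvk had 5 matches, Fdps, Idi1 and Hmgcs1 had 2 each, and Mvd and Insig1 had 1 each. In Fdps the matches began 130 and 85 bases before the start. Of 14 promoters of other synthesis enzymes, 9 held the letters, or 64.3%. The form TCACNCCAC of the sterol regulatory element, searched on both strands and unable to contain the CCAAT letters, was in 0 of the 6 promoters and in 0.986% of those of genes tested. A match is a description of the letters, and a promoter without one shows only that these letters were not in the window.

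The targeted gene was lower on every knockout array. Il33 had log2 values of 8.07, 8.37 and 9.82 in knockout 28, 27 and 52, against 13.86, 16.32 and 16.60 in wildtype 34, 45 and 37. Its difference was -6.84 (limma adjusted p = 0.0438), and it was the one gene called at an adjusted p under 0.05, or 0.00864% of the genes tested. Without knockout 28, 27 or 52, Il33 no longer passed (limma adjusted p = 0.277, 0.668 and 0.0672), nor did it without wildtype 45 or 37 (0.688 and 0.0793), with differences of -7.37 to -6.34. Blood endothelial markers gave strong signal on all arrays, with Cdh5, the adhesion molecule of endothelial junctions, at 19.62 to 19.70 on knockout arrays and 19.62 to 19.71 on wildtype arrays, close to the top of the scale. The arrays were less alike in other cell types, and those values stand beside the results they move with.

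Fdps, which makes farnesyl diphosphate at the branch point, had log2 expression of 6.08, 6.53 and 6.74 in knockout 28, 27 and 52, against 8.38, 7.29 and 7.26 in wildtype 34, 45 and 37. All 3 knockout arrays lay below all 3 wildtype arrays, with a gap of 0.52 between the groups. Knockout arrays averaged 6.45 ± 0.34 and wildtype arrays 7.64 ± 0.64 (SD, n = 3 each), a difference of -1.19. Because this difference chose the gene, it is given as a description, without a test. It came to -1.53 among females, to -0.52 between the males, and to -0.83 without wildtype 34, the array with the highest value.

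The enzymes before Fdps did not share its separation of the groups. Mvk phosphorylates mevalonate, and its values were 4.17, 5.40 and 6.01 in knockout 28, 27 and 52, against 4.96, 5.20 and 5.89 in wildtype 34, 45 and 37. The 4.17 of knockout 28 lay below the median of the background probes on that array (4.65). The knockout held both the lowest and the highest value, and the difference of -0.16 (95% interval -1.26 to 0.95) was far smaller than the spread between animals. Without knockout 28 it was 0.36, and without wildtype 37 it was 0.11. Mvd, which decarboxylates the phosphorylated product to isopentenyl diphosphate, read 3.69, 4.11 and 3.55 on knockout arrays, against 3.76, 3.93 and 3.48 on wildtype arrays. It lay below the median of the background probes (4.55 to 4.73) on every array, so its difference of 0.06, which was -0.10 without knockout 27 and -0.06 without wildtype 37, is not read as a measure of expression.

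Idi1 interconverts isopentenyl and dimethylallyl diphosphate, the units that Fdps joins. It had 7.73, 8.79 and 8.52 in knockout 28, 27 and 52, against 8.67, 8.58 and 9.10 in wildtype 34, 45 and 37. Knockout 28 alone stood clearly apart, and the other arrays of both groups overlapped. The difference was -0.44 (95% interval -1.28 to 0.40), and -0.13 without knockout 28.

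Of the sterol enzymes after the branch point, Sqle separated the groups by a small margin and Fdft1, which commits farnesyl diphosphate to sterols, did not. Sqle, the epoxidase that is a rate-limiting step of cholesterol synthesis, had 5.36, 5.39 and 5.19 in knockout 28, 27 and 52, against 6.03, 5.50 and 5.58 in wildtype 34, 45 and 37. The highest knockout value lay 0.11 below the lowest wildtype value, and by 0.03 when each array was centred on its median. Its difference was -0.39 (95% interval -1.10 to 0.32), the same among females and between the males, and -0.23 without wildtype 34. Fdft1, the squalene synthase, had 6.27, 6.26 and 6.04 in the knockout, against 6.71, 5.24 and 7.10 in the wildtype. The knockout arrays lay within the range of the wildtype arrays. The difference was -0.16 (95% interval -1.22 to 0.90), with 0.29 among females and -1.06 between the males. It was 0.02 without wildtype 34, 0.22 without wildtype 37 and -0.72 without wildtype 45.

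Insig1, the sterol-sensing anchor of SREBP and itself an SREBP target, had a difference of the opposite sign. Its values were 11.49, 11.90 and 12.58 in knockout 28, 27 and 52, against 10.10, 11.30 and 12.30 in wildtype 34, 45 and 37. The male of each genotype had the highest value, and the groups overlapped. The difference was 0.76 (95% interval -0.47 to 1.98). It depended on wildtype 34, and was 0.19 without that array.

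**Figure D1:**
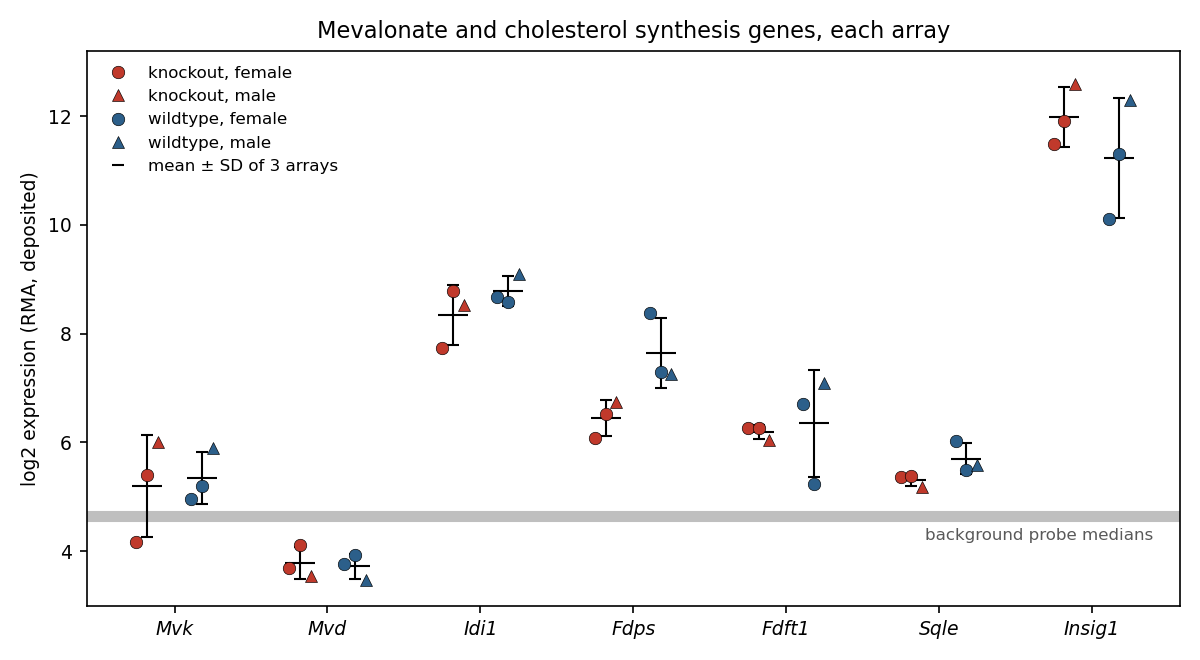
Log2 expression (vertical axis) of the 7 measured genes in pathway order, with knockout arrays on the left and wildtype arrays on the right of each pair, circles for females and triangles for males, and bars for the mean ± SD of 3 arrays. The groups do not overlap for Fdps and Sqle and overlap for the other genes, and Mvd lies under the grey band of background probe medians (4.55 to 4.73).

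Apart from Fdps, 0 of the 6 measured genes passed the test between genotypes in limma, each with an adjusted p of 0.999, against 0.00864% of all genes tested. At an unadjusted p under 0.05 the count was also 0 of 6, against 1.98% of all genes. The smallest unadjusted p among them was 0.198, for Insig1. One of the 6, Sqle, lay lower on all 3 knockout arrays, a pattern found in 2.89% of the genes tested. The median difference over the 6 genes was -0.16, with 4 below 0, beside 0.03 over all genes tested, of which 46.0% were below 0. The 6 include Mvd, which lay under the background. Their median was -0.01 without knockout 28, -0.10 without wildtype 34, -0.36 without wildtype 45 and 0.03 without wildtype 37, so single arrays decided its size and sign. A difference of -1 lies inside the intervals of Mvk, Idi1, Fdft1 and Sqle, so a loss of that size could not be told from none with 3 arrays per group.

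The rest of the pathway was read from lists of 62 other genes, of which 54 were measured and tested. None passed the test between genotypes in limma, and 1 had an unadjusted p under 0.05. Of the 54, 1 lay lower and 1 lay higher on all knockout arrays, against 2.89% and 3.36% of all genes tested. The median difference over the 54 genes was 0.05, beside 0.03 over all genes tested.

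Among the enzymes of the later route, from squalene epoxide to cholesterol, 8 of 10 had differences below 0, with a median of -0.27. The median was -0.33 among females and 0.09 between the males. The 10 include Nsdhl, Tm7sf2 and Lss, which lay above the median of the background probes on 2, 4 and 5 of 6 arrays. Cyp51, the lanosterol demethylase, was the one gene of the 54 lower on all knockout arrays, at 6.71, 7.18 and 7.43 in knockout 28, 27 and 52, against 7.55, 7.66 and 7.86 in wildtype 34, 45 and 37. The difference was -0.58 (95% interval -1.33 to 0.16, limma adjusted p = 0.999). Msmo1, the methyl sterol oxidase, followed another order, with 6.91, 7.02 and 7.72 in the knockout, against 8.47, 6.91 and 7.68 in the wildtype. Its high value in wildtype 34 was shared with Fdps and Sqle. Dhcr7, the last reductase of the route, differed by -0.61 and Ebp, a sterol isomerase, by -0.08, both with overlapping groups. The difference of Dhcr7 was -1.155 among females and 0.47 between the males. Its value of 4.56 in knockout 27 lay below the median of the background probes on that array (4.72). Erg28, known in yeast as a scaffold of the demethylation complex, differed by -0.36.

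The 4 other enzymes of the mevalonate branch tested here gave no common direction. Acat2, which joins acetyl-CoA units at the entry, differed by 0.24, Pmvk, the second kinase, by 0.34, Idi2 by 0.01 and Ggps1, which extends farnesyl to geranylgeranyl diphosphate, by -0.20. In wildtype 34, Acat2, Pmvk and Idi2 (4.43, 4.11 and 4.37) lay below the median of the background probes (4.55). Idi2 did so in wildtype 37 as well (4.59, against 4.73). Taking the 4 enzymes with the sterol enzymes, the median over 14 genes was -0.18. It was -0.08 without knockout 28, -0.41 without knockout 52, -0.25 among females and 0.04 between the males.

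Genes that use isoprenoids differed by a median of -0.06, with 5 of 12 above 0. Fnta, the shared subunit of the prenyl transferases, averaged 9.95 ± 0.44 on knockout arrays and 9.82 ± 0.61 on wildtype arrays (SD, n = 3 each). Nus1, a subunit of the dolichol-making transferase, differed by -0.56 and Chm, the Rab escort protein, by 0.05. None of the 12 separated the groups.

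In the list of SREBP control and sterol uptake 8 of 12 genes were above 0, with a median of 0.06. Srebf2, the SREBP gene that governs sterol synthesis, had 7.63, 7.50 and 6.94 in knockout 28, 27 and 52, against 8.05, 7.11 and 7.42 in wildtype 34, 45 and 37. The groups overlapped, with a difference of -0.17. Scap, its escort, differed by -0.39. Mylip, the ubiquitin ligase that removes the LDL receptor and is an LXR target, had 11.34, 11.12 and 11.90 in the knockout, against 10.45, 9.85 and 11.21 in the wildtype. Its difference of 0.95 had an unadjusted p of 0.048 and an adjusted p of 0.999 in limma. Npc2, which hands cholesterol out of lysosomes, differed by -0.32, and Mbtps1, the first protease that cuts SREBP, by 0.07.

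**Figure D2:**
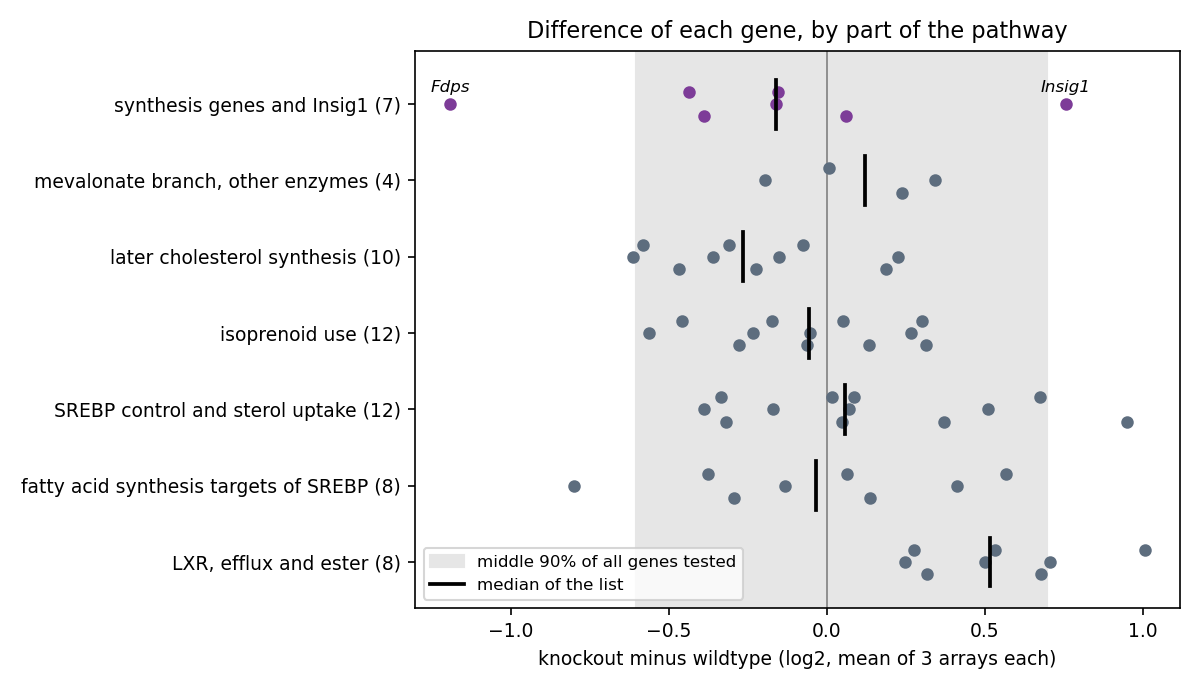
Knockout minus wildtype difference in log2 expression (horizontal axis) of each measured gene, in rows by part of the pathway with the number of genes, a black bar for the list median and grey for the middle 90% of all genes tested. Fdps at -1.19, Scd and Dhcr7 lie below the grey range, Insig1 at 0.76, Mylip, Abcg1 and Ch25h lie above it, and the bottom row of sterol efflux genes lies wholly above 0.

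Genes of sterol sensing by LXR, efflux and ester turnover were above 0 in 8 of 8 cases, with a median difference of 0.52, and none passed the test or separated the groups. Of all genes tested, 46.0% were below 0. Abcg1, an exporter of sterols, had 10.65, 11.49 and 12.21 in knockout 28, 27 and 52, against 10.13, 9.73 and 11.47 in wildtype 34, 45 and 37. The male wildtype reached the knockout range, and the difference was 1.01 (95% interval -0.20 to 2.21, limma adjusted p = 0.999). Abca1, the exporter that loads nascent HDL, differed by 0.32, Lipa, the lysosomal ester hydrolase, by 0.53 and Ch25h, which makes a side-chain oxysterol, by 0.71. Nr1h3 and Nr1h2, the LXR receptors, differed by 0.68 and 0.50. Between the males, Nr1h3, Ch25h and Cyp27a1 were below 0 and the other genes of the list above 0. The list median was 0.27 without wildtype 45, 0.86 without wildtype 37, 0.69 among females and 0.18 between the males. It was 0.37 with the mean of the keratinocyte markers as a covariate, and 0.32 with the mean of the spike-in controls as one.

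**Figure D3:**
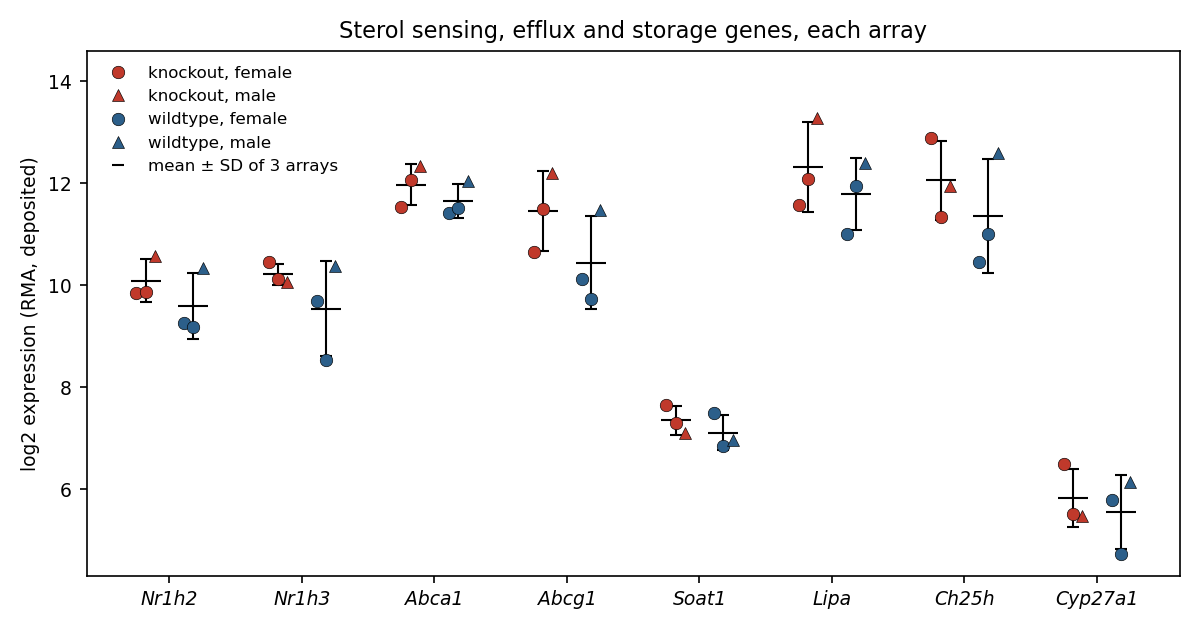
Log2 expression (vertical axis) of the 8 genes of LXR sensing, efflux and ester turnover, with knockout arrays left of wildtype arrays, circles for females, triangles for males and bars for the mean ± SD of 3 arrays. Each mean is higher in the knockout and each pair of groups overlaps, the male wildtype array often lying within the knockout range.

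Fatty acid synthesis genes, which SREBP factors also control, were split 4 to 4 around 0, with a median of -0.04. The list includes Fasn, Fads1 and Acss2, which lay above the median of the background probes on 2, 4 and 5 of 6 arrays. Acaca, the carboxylase of the committed step, was the one gene of the 54 higher on all knockout arrays, at 5.91, 6.20 and 6.38 in the knockout, against 5.26, 5.63 and 5.90 in the wildtype, with the groups 0.01 apart. Scd, the stearoyl desaturase, had 5.82, 5.83 and 6.19 in knockout 28, 27 and 52, against 8.06, 6.41 and 5.77 in wildtype 34, 45 and 37. Acly, which supplies cytosolic acetyl-CoA, differed by -0.38 and Elovl6 by -0.13.

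RNA of other skin cells varied between the arrays, and keratinocytes and sebocytes make sterols and fatty acids themselves. Of 11 keratinocyte markers 6 were measured, led in mean signal by Krt1, Krt15 and Perp. Their mean was 11.27, 8.24 and 8.01 in knockout 28, 27 and 52, against 13.68, 10.94 and 7.74 in wildtype 34, 45 and 37. Wildtype 34, highest in these markers, was also highest in Fdps, Sqle, Msmo1 and Scd and lowest in Insig1. Fdps was higher in wildtype 37, whose keratinocyte mean was the lowest of all, than on any knockout array. With the keratinocyte mean as a covariate the difference was -1.06 for Fdps, -0.29 for Sqle, -0.65 for Idi1 and 0.21 for Insig1.

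Of 10 sebocyte markers 9 were measured, with a mean of 5.96 to 6.27 on knockout arrays and 5.89 to 7.10 on wildtype arrays. The mean of this list was again highest in wildtype 34, but not all its genes followed. Of Mgst1, Soat1 and Plin2, which led in mean signal, Mgst1 was highest in wildtype 34 (12.19) and Soat1 in knockout 28 (7.65). Plin2 was highest in knockout 52 (8.30) and lowest in wildtype 34 (5.68). Fa2h lay below the background median on every array. Elovl3, a fatty acid elongase of sebaceous glands, lay lower on all knockout arrays, as Fdps did, with 5.37, 4.15 and 5.22 in knockout 28, 27 and 52, against 6.48, 6.30 and 5.48 in wildtype 34, 45 and 37 (limma unadjusted p = 0.0232, adjusted p = 0.999). Dgat2 of the same list lay higher on all knockout arrays, by 0.45 on average, as did the endothelial marker Tek, by 0.34. So did the erythroid marker Alas2, by 1.19 (limma unadjusted p = 0.0168, adjusted p = 0.999), which lay above the background median on 2 of 6 arrays. Of all genes tested, 2.89% lay lower and 3.36% higher on all knockout arrays. Fibroblast markers, 7 of 8 measured and led by Col3a1, Dcn and Fbn1, had means of 8.60 to 9.76 on knockout arrays and of 8.72 to 11.54 on wildtype arrays, with the top value again in wildtype 34. Median differences between genotypes were 0.16 for blood endothelial markers (led by Plvap, Cdh5 and Eng), 0.68 for lymphatic markers (Ccl21, Pdpn and Reln), 0.30 for pericyte and smooth muscle markers (Rgs5, Pdgfrb and Des), -0.42 for leukocyte markers (Lcp1, Cd68 and Lyz2), 1.44 for erythroid markers (Hba-a1, Hbb and Alas2) and -0.34 for proliferation genes (Pcna, Tyms and Mcm2), and none of their genes passed the test between genotypes in limma. All 5 adipocyte markers measured (Adipoq, Lep and Cidec among them) lay below the background median on every array. The leukocyte genes Cd3e and Itgam, the erythroid gene Slc4a1 and the proliferation gene Cdk1 did so too, and the medians above include them. The part of these cells in the differences was not tested beyond the covariate, and in a sorted population fewer cells of a type and less RNA per cell cannot be told apart.

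**Figure D4:**
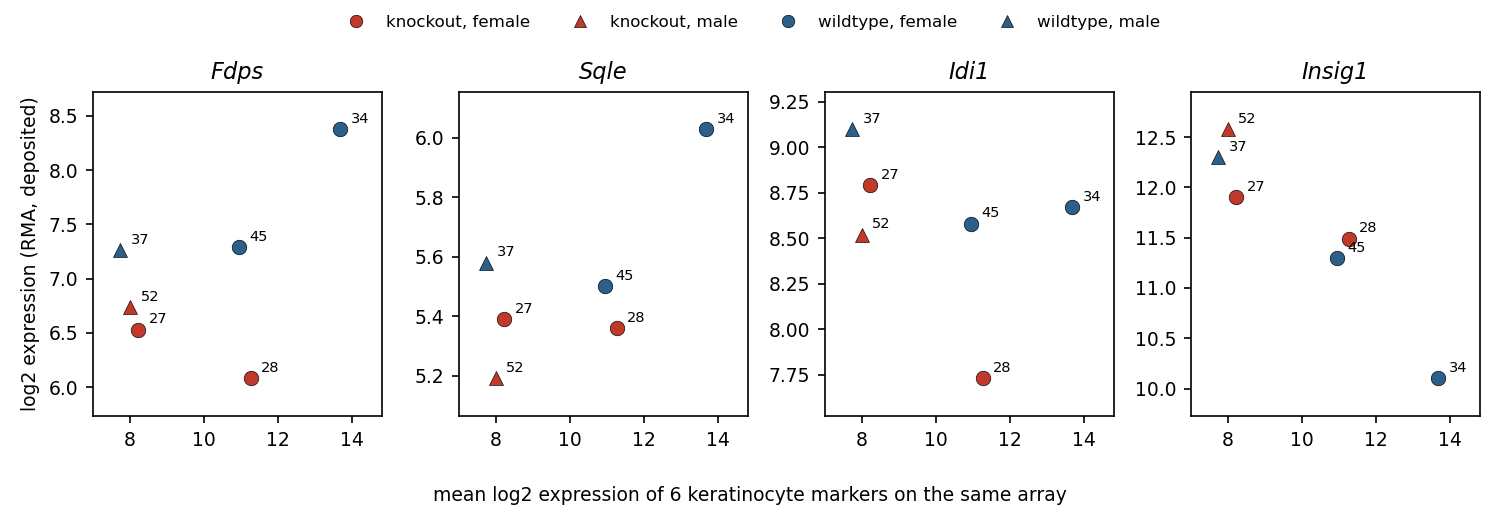
Log2 expression of Fdps, Sqle, Idi1 and Insig1 (vertical axes) against the mean log2 expression of 6 keratinocyte markers on the same array (horizontal axis), with animal numbers beside the points, red for knockout, blue for wildtype, circles for females and triangles for males. Wildtype 34 lies farthest right, with the highest Fdps and Sqle and the lowest Insig1, while the Fdps of wildtype 37 on the far left lies above all knockout values.

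The spike-in controls, bacterial and phage transcripts added during preparation, were also uneven. Their mean was 10.26, 9.33 and 8.82 in knockout 28, 27 and 52, against 10.42, 10.12 and 8.91 in wildtype 34, 45 and 37. When arrays above and below the midpoint of these means entered the fit as blocks, the difference was -1.19 for Fdps, -0.35 for Sqle, -0.67 for Idi1, -0.55 for Mvk and 0.37 for Insig1.

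The contrast of the sexes did not enter the choice of the genes. In limma with genotype in the model, 0 of the 7 genes passed between males and females, where 3 genes in all did, or 0.0259% of those tested. At an unadjusted p under 0.05 there were 2 of 7, against 18.6% of all genes. Insig1 averaged 12.44 in the males and 11.20 in the females, a difference of 1.24 (95% interval 0.32 to 2.17, limma adjusted p = 0.174). Mvk averaged 5.95 in the males and 4.93 in the females, a difference of 1.02 (95% interval 0.12 to 1.91, limma adjusted p = 0.224). Fdps differed by -0.07 (95% interval -1.01 to 0.87). After quantile normalization of the deposited values the difference was 0.82 for Insig1 and 0.92 for Mvk (limma adjusted p = 0.528 and 0.474). The males also had the lowest spike-in means and the lowest keratinocyte means, with median differences between males and females of -3.23 over the 6 keratinocyte markers and -2.16 over the 6 lymphatic markers measured. One of the 3 genes called was a lymphatic marker, Ccl21, with a difference of -4.49 (limma adjusted p = 0.0322). The part of these signals in the differences of Insig1 and Mvk was not tested. The difference between genotypes did not pass a test of dependence on sex for any of the 7 genes (limma interaction, smallest adjusted p = 0.999), and 0 of 7 had an unadjusted p under 0.05, against 1.03% of all genes, in a test that rests on 1 male per genotype.

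As a description of the course of Fdps over the 6 arrays, each gene's own mean was taken off and the root mean square difference from Fdps computed. Among 11546 genes the nearest were S100a11, a calcium-binding protein (0.236), Lrp4, a receptor of the LDL receptor family (0.259), Chchd6, a protein of mitochondrial cristae (0.266), Haus4, an augmin subunit (0.267), and Bmp2, a growth factor (0.269), where the median gene was at 0.855. All 5 had their highest value in wildtype 34 and their lowest in knockout 28, as Fdps did. That likeness comes with choosing them by nearness to Fdps on the same arrays. Haus4 lay above the median of the background probes only in wildtype 34 (5.02, against 4.55). In knockout 28, Lrp4 and Bmp2 lay below it (4.31 and 4.33, against 4.65), as did Lrp4 in knockout 27 (4.70, against 4.72). Of the 6 other measured genes of the set Sqle was nearest at 0.512, and 3.4% of the genes tested lay closer. Among the 54 other pathway genes 5 lay closer to Fdps than Sqle did, led by Scd at 0.412 and Msmo1 at 0.454. Idi1 was at 0.619 with 10.7% closer and Fdft1 at 0.816 with 42.9% closer. Insig1 was farthest at 1.391, with 97.5% of the genes tested closer to Fdps than it was.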

How the data were processed

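The submitters' processing notes name RMA and Affymetrix Expression Console, and the deposited values were read as log2 expression, 1 per probeset and array. For the tool versions, the probeset library and the genome build the sources used here give nothing. The highest deposited value, 19.93, is unusual for scanned signal on that scale, so the unit of each difference rests on this reading. No further scaling was done.

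Of 24834 probesets, 1646 are controls and 15049 carry 1 gene symbol each (0 carry several), which leaves 8139 without a name here. The RefSeq table of GRCr8 held every one of the 15049 Entrez identifiers. For the 10 symbols with several probesets the one with the highest mean was kept. Of 15037 genes, 3460 were left out as dim, their mean being below 3.51, the 25th percentile over probesets other than controls.

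The comparison of genotypes used limma 3.58.1 under R 4.3.3, and genotype was the only term. P-values are two-sided, Benjamini-Hochberg adjusted over the 11577 genes tested, with a threshold of 0.05. They rest on the spread between animals, and the number of arrays limits the precision (median standard error of a difference 0.387). Named were Il33, the 8 genes, from each pathway list the genes called, those whose groups do not overlap and the 3 of highest mean, from each cell type list the 3 of highest mean and defining genes at background, and the 5 nearest to Fdps. Dhcr7, Erg28, Idi2, Srebf2, Scap, Abcg1, Nr1h2, Nr1h3, Cyp27a1, Elovl3, Tek and Dgat2 were named after their values were seen. The genes and lists were chosen with earlier results of these data known. The scripts were tested on simulated data. Alternatives were other filters, scalings, covariates, weights and eBayes options, and leaving out each array.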

Additional observations from a re-analysis of the deposited data

How the results depend on the processing

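Of 18 alternatives, each changing 1 choice, the differences of Fdps, Idi1 and Sqle stayed below 0 and that of Insig1 above 0 in all 18, with ranges of -1.53 to -0.83, -0.67 to -0.13, -0.49 to -0.23 and 0.19 to 1.29. The filters, eBayes options, sex as a covariate and the mean of a gene's probesets cannot change these differences, and left them as they were. For Fdps and Sqle, whose groups do not overlap, leaving out arrays could not turn the sign. Fdps was also chosen by these values, so its constant sign is a description. No alternative brought Mvk, Mvd, Idi1, Fdft1, Sqle or Insig1 past the limma threshold, the smallest adjusted p being 0.535, for Insig1. The sign turned for Mvk with array quality weights (0.0197) and for Fdft1 in females only (0.29). On leaving out 1 array in turn, Mvk ranged from -0.57 to 0.36, Mvd from -0.10 to 0.18 and Fdft1 from -0.72 to 0.22. The median of the 7 genes, which include Fdps, ranged from -0.49 to -0.06. Without Fdps, the median of the other measured genes ranged from -0.36 to 0.03. The number of genes called between genotypes was 0 without a filter, 0 with the filter at the 50th percentile and 0 in females only (335, 141 and 622 genes at an unadjusted p under 0.05), and 0 to 1 on leaving out 1 array. The gene lost was Il33, whose limma adjusted p ranged from 1.56e-04 to 0.688. The number called between sexes was 29 with arrays centred on their medians, 26 with trend and robust options, and 2 to 66 on leaving out 1 array (66 without knockout 27), an alternative chosen after seeing the data, as were those of the other gene lists. The cause was not tested. No paired analysis was possible because the animals of the 2 genotypes carry no shared numbers.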
